A study of Mus musculus with 6 samples.

Results

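The BCL2 family of apoptosis regulators was followed in the retinal pigment epithelium (RPE), the cell layer behind the photoreceptors, of mice with and without light damage. The family was given as 10 genes by symbol: Bid, Bad, Bcl2l11, Bbc3, Pmaip1, Bax, Bak1, Bcl2, Bcl2l1 and Mcl1. A gene was taken as measured where a probe set on the Affymetrix mouse array was annotated to that symbol alone. By this rule 9 of the 10 genes were measured, by 29 probe sets, out of 18193 genes in all. Bax, the second effector of the family, had no such probe set and was not analysed here. Each gene is described by its probe set with the highest mean over all arrays, and the other 20 probe sets served as a check.

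All mice were BALB/c, an albino strain, and all were kept in the dark for 1 week. The dark-adapted group (3 arrays) had no further treatment named in the labels. The light-damaged group (3 arrays) then spent 1.5 h in white fluorescent light at 6000 lux, and its RPE was taken 24 h later. The labels give no age or sex and do not say whether a sample was 1 animal or a pool, so p-values rest on a sample-to-sample spread that may be technical.

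BCL2 family proteins decide whether the outer mitochondrial membrane is opened during apoptosis. The BH3-only proteins (Bid, Bad, the Bcl2l11 product BIM, the Bbc3 product PUMA and the Pmaip1 product NOXA) sense damage or death receptor signals. They activate the pore-forming effectors BAX and BAK, or bind the protective members BCL2, BCL-XL (from Bcl2l1) and MCL1, which otherwise hold the effectors in check. Many of these proteins are controlled after translation, by cleavage, phosphorylation or turnover, so transcript levels are one layer of their control. Photoreceptors, rather than RPE cells, are the best known victims of intense light in albino rodents.

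The promoters of Bid and Mcl1 are shown because these genes had the largest transcript differences of the family. Each is the stretch of 250 bases before a RefSeq start, 5′ to 3′, from GRCm38.p6. Both stretches lie wholly or mostly inside the annotated span of their gene, so the start used is not the outermost. Bid lies on the minus strand at chr6:120916825-120917074 and Mcl1 on the plus strand at chr3:95658471-95658720. Capitals mark GC boxes, the letters GGGCGG on either strand.
Bid: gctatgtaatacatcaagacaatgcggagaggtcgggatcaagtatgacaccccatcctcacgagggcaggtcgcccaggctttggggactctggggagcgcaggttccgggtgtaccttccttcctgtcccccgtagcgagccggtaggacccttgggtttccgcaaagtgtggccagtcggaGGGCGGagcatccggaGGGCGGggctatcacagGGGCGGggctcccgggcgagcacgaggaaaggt
Mcl1: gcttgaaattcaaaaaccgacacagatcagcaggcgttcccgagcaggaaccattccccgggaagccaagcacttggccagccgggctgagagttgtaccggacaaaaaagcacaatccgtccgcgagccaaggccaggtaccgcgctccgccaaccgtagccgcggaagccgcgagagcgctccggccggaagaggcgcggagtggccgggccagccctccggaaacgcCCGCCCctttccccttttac
The Bid stretch held 3 GC boxes and the Mcl1 stretch 1, and 32.7% of 32851 promoter stretches of this length held at least 1. Neither stretch held the STAT site TTCNNNGAA, the AP-1 site TGACTCA or TGAGTCA, or the E-box CACGTG, each searched on both strands. Neither held a match to the NF-kB site or the p53 half-site. Such matches were found in 7.02% (STAT), 4.46% (AP-1), 6.02% (E-box), 7.25% (NF-kB) and 7.13% (p53 half-site) of all stretches. Promoters of 8 measured members, all but Pmaip1, were searched in 14 stretches, as some genes had several. GC boxes were found in 9 of the 14 stretches, for Bad, Bbc3, Bcl2 and Bcl2l11 as well as Bid and Mcl1. An E-box was found in 1 stretch, for Bbc3, and NF-kB matches in 2, for Bbc3 and Bcl2l1. A match is a string of letters and no measure of binding, and the marked bases do not overlap one another.

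Both arrays numbered 1 differed broadly from the other 4. They lay at -38.60 and -68.73 on the first principal component against 18.76 to 34.02 for the others, and the excess of the 3′ over the 5′ Gapdh control set, which grows as RNA is degraded or copied short, was 2.45 and 2.48 against 1.54 to 1.80. Values per member are therefore given by array, and results are also given without the replicate 1 arrays where a call changed. The 11 RPE markers had mean log2 values of 8.04 to 14.71, against array medians of 7.43 to 7.48. Photoreceptor markers, also 11, had means of 9.40 to 14.41, so the samples labelled RPE held photoreceptor transcripts as well.

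In the family as a whole 1 of 9 measured members rose after light damage, none fell, and 8 did not pass the test. The riser was Bid, at 1.90-fold. Calls were made at an adjusted p under 0.05 in limma with the replicate number as a block, which compares each light-damaged array with the dark-adapted array of the same number, and with Benjamini-Hochberg adjustment over all genes. By this rule 3.07% of all genes were called higher and 1.92% lower, 4.99% in either direction. Of the members, 6 had a difference above 0 and 3 below. At an unadjusted p under 0.05, 4 members passed with the block, 1 of them lower, and 1 passed without it, and 19% of all genes passed with the block. Without the block limma called no member, and 0.0495% of all genes. The median difference was 0.09 over the members and 0.00 over all genes, on the log2 scale, and the median absolute difference was 0.23 against 0.11. A difference means light-damaged minus dark-adapted in log2 units throughout, ± standard error of the fit with the block, with n = 3 per group. Where arrays were left out n was smaller, and the spread behind those p-values was estimated from very few arrays.

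**Figure D1:**
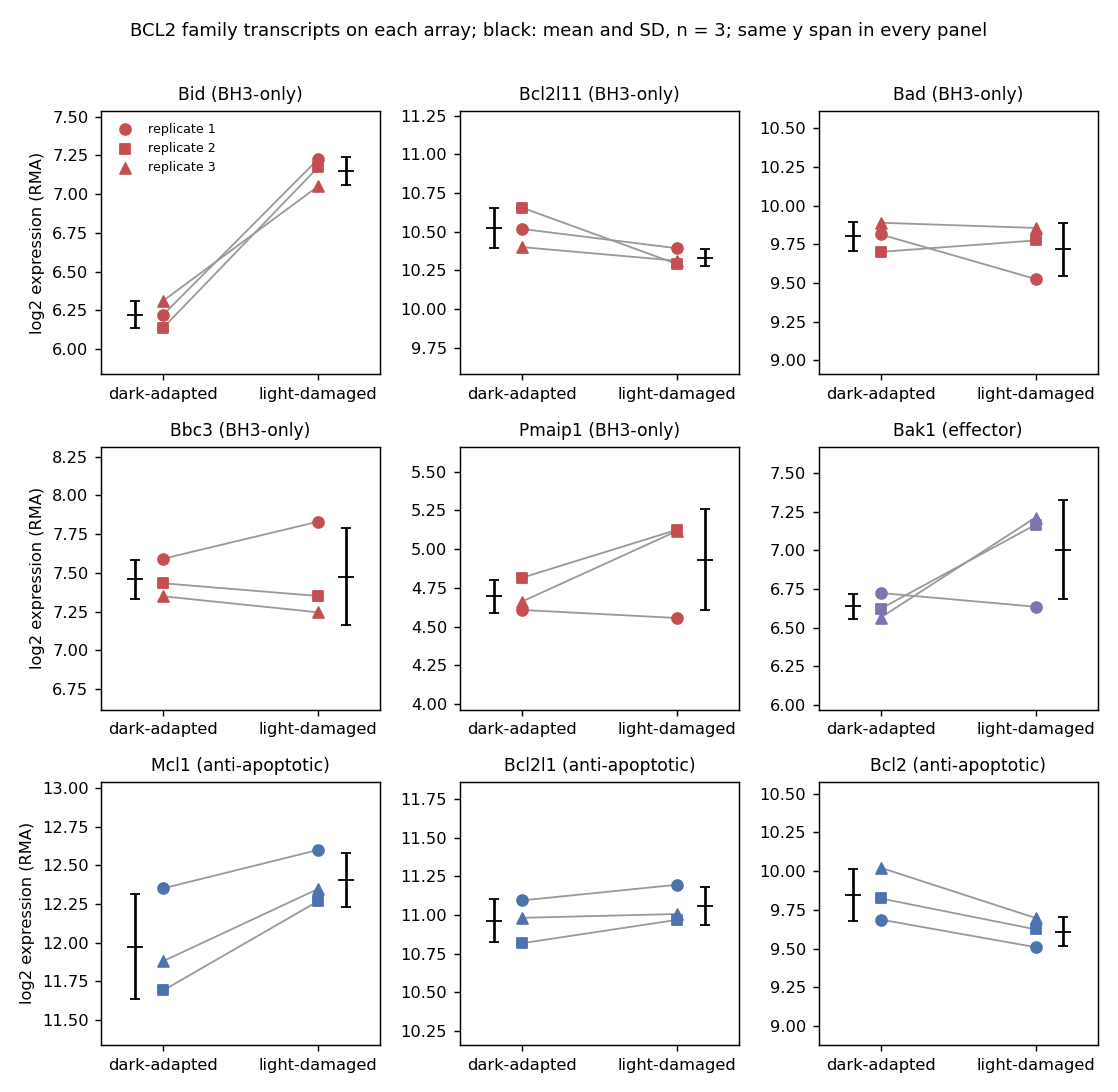
Log2 expression (RMA, y axis) of the 9 measured members on the dark-adapted and light-damaged arrays; symbols give the replicate number, lines join arrays of one number, and black marks give the mean and SD (n = 3). The 3 light-damaged arrays of Bid lie between 7.05 and 7.23, above the dark-adapted arrays at 6.14 to 6.31, while the groups of the other members overlap, except for Bcl2l11, which is lower.

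Bid encodes the BH3-only protein that caspase-8 cleaves to link death receptors to mitochondria. Its log2 values were 6.22, 6.14 and 6.31 in dark-adapted replicates 1 to 3 and 7.23, 7.17 and 7.05 in the light-damaged ones. Every light-damaged array lay above every dark-adapted array, which held in this direction for 6.61% of all genes. The mean went from 6.22 ± 0.09 (SD, n = 3) to 7.15 ± 0.09, a difference of 0.93 ± 0.10 (limma adjusted p = 0.0066 with the block). The difference was 1.01, 1.04 and 0.74 in pairs 1, 2 and 3, and 1.03% of all genes had a larger rise. Without the block the same difference had an adjusted p of 0.0706 in limma. Without the replicate 1 arrays it was 0.89 (limma adjusted p = 0.0063 with the block). The Bid probe set was dim, among the lowest 25% of genes by mean level, where RMA compresses differences.

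Its other 2 probe sets showed smaller differences in the same direction. The dimmer of them, an x_at set that can bind related transcripts, lay near the low end of the array's values. It gave 4.86, 4.94 and 5.03 in dark-adapted and 5.15, 5.20 and 5.18 in light-damaged replicates 1 to 3, again with no overlap. Its difference was 0.23 ± 0.09. The other gave 6.02, 5.73 and 5.36 against 6.25, 5.82 and 5.68, higher in each pair but overlapping between groups, with a difference of 0.21 ± 0.09. With p-values adjusted over all 34945 probe sets, neither passed in limma (adjusted p = 0.23 and 0.30). Averaged over its 3 probe sets, Bid differed by 0.46 (limma adjusted p = 0.0234 with the block).

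The other BH3-only genes did not pass. Bcl2l11, whose product BIM binds all the protective members, read 10.52, 10.66 and 10.40 in dark-adapted and 10.39, 10.29 and 10.31 in light-damaged replicates 1 to 3. Every light-damaged array lay below every dark-adapted array, as for 3.72% of all genes, although the lowest dark-adapted and the highest light-damaged value nearly met. The difference was -0.19 ± 0.10, with a 95% interval of -0.42 to 0.04 (limma adjusted p = 0.36). Of its 4 other probe sets, 1 gave -0.19 and the rest -0.02, 0.01 and 0.06.

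Bbc3, which encodes PUMA, a p53-induced killer, read 7.59, 7.43 and 7.35 in dark-adapted and 7.83, 7.35 and 7.25 in light-damaged replicates 1 to 3. The groups overlapped, with pair 1 higher and pairs 2 and 3 lower in light. The difference was 0.02 ± 0.10, with a 95% interval of -0.23 to 0.27, and its sign turned without the replicate 1 arrays, to -0.093, and with median centring, to -0.0020. Pmaip1, which encodes NOXA, the partner that draws MCL1 into degradation, lay near the low end of the array's values, at 4.61, 4.82 and 4.66 in dark-adapted and 4.56, 5.12 and 5.12 in light-damaged replicates 1 to 3. Light-damaged replicates 2 and 3 lay above all dark-adapted arrays and light-damaged replicate 1 below them. The difference of Pmaip1 was 0.24 ± 0.12, with a 95% interval of -0.05 to 0.52 (limma adjusted p = 0.36), and 0.38 without the replicate 1 arrays. Bad, a BH3-only protein held inactive by survival kinases, read 9.81, 9.70 and 9.89 against 9.53, 9.77 and 9.86, again with overlap. Its difference was -0.08 ± 0.10, with a 95% interval of -0.33 to 0.16, and 0.020 without the replicate 1 arrays.

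Bak1, the effector that forms pores in the outer mitochondrial membrane, depended on which arrays were kept. It read 6.72, 6.62 and 6.56 in dark-adapted and 6.64, 7.17 and 7.21 in light-damaged replicates 1 to 3. Light-damaged replicates 2 and 3 stood above all dark-adapted arrays, and light-damaged replicate 1 lay among them. The difference was 0.37 ± 0.15 (limma adjusted p = 0.26). Without the replicate 1 arrays it was 0.60, with an adjusted p of 0.0155 in limma with the block, a setting in which 4.55% of all genes were called higher. Without the replicate 2 arrays the Bak1 difference was 0.28 and without the replicate 3 arrays 0.23 (limma adjusted p = 0.54 and 0.73 with the block). Its second probe set, an s_at set that can bind related transcripts, gave 0.03 ± 0.09.

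Among the protective members Mcl1, a short-lived protein needed by many cells for survival, had the largest difference. Its log2 values were 12.35, 11.69 and 11.88 in dark-adapted and 12.60, 12.27 and 12.35 in light-damaged replicates 1 to 3. It was higher in light in each pair, by 0.25, 0.58 and 0.47, yet the groups overlapped because dark-adapted replicate 1 lay above light-damaged replicates 2 and 3. The difference was 0.43 ± 0.10, or 1.35-fold, with a 95% interval of 0.19 to 0.67 that is not adjusted for the number of genes (limma adjusted p = 0.0665 with the block and 0.97 without it). Mcl1 passed without the replicate 1 arrays, at 0.52 (limma adjusted p = 0.0243 with the block), with quantile normalization and with array weights, settings in which 2.88% and 6.04% of all genes were called higher. It did not pass without the replicate 2 arrays, at 0.36, or without the replicate 3 arrays, at 0.41 (limma adjusted p = 0.23 and 0.31 with the block).

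All 6 probe sets of Mcl1 had a difference above 0, and 5 were higher in each pair. The largest was that of a dimmer probe set, which read 9.39, 8.99 and 9.12 in dark-adapted and 9.76, 9.86 and 9.89 in light-damaged replicates 1 to 3, with no overlap. Its difference was 0.67 ± 0.12, and it passed with p-values adjusted over all probe sets (limma adjusted p = 0.0335 with the block and 0.32 without it), where 2.38% of probe sets were called higher. The other 4 gave 0.25 to 0.43. The brightest Mcl1 probe set and 2 others were x_at sets, which can bind related transcripts.

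Bcl2l1, which encodes BCL-XL, read 11.09, 10.82 and 10.98 in dark-adapted and 11.19, 10.97 and 11.01 in light-damaged replicates 1 to 3, so that the groups overlapped. Its difference was 0.09 ± 0.09, with a 95% interval of -0.12 to 0.30 (limma adjusted p = 0.66), and its other 3 probe sets gave 0.11, -0.02 and 0.02. Bcl2, the founding member of the family, read 9.69, 9.82 and 10.02 in dark-adapted and 9.51, 9.62 and 9.70 in light-damaged replicates 1 to 3. It was lower in light in each pair, with differences of -0.18, -0.20 and -0.32, although light-damaged replicate 3 lay just above dark-adapted replicate 1. The difference was -0.23 ± 0.09, with an unadjusted 95% interval of -0.45 to -0.02 (limma adjusted p = 0.22 with the block). Of its 4 other probe sets, 1 gave -0.34 ± 0.08 with no overlap between groups (adjusted p = 0.09 over all probe sets in limma). The remaining 3 gave -0.01, 0.00 and -0.04.

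**Figure D2:**
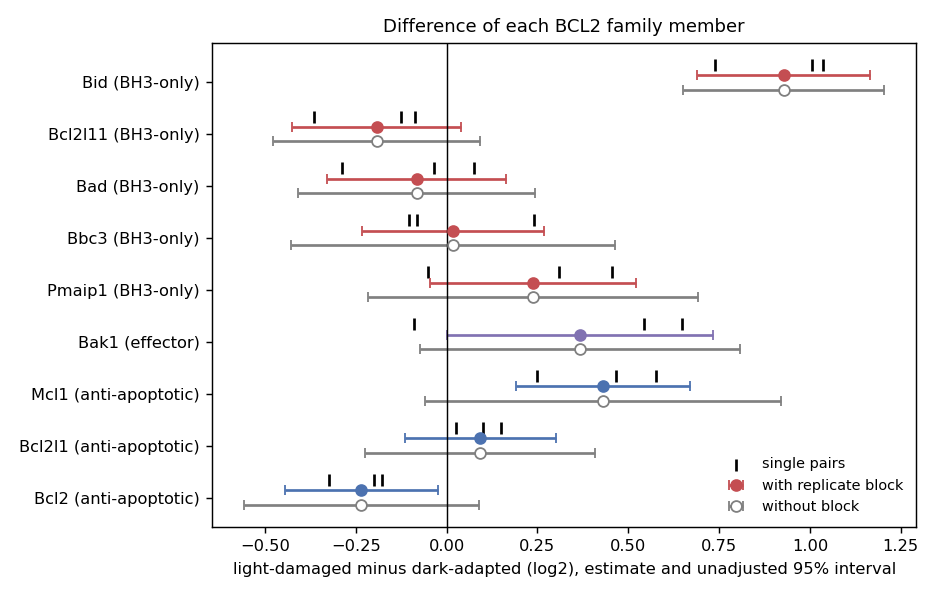
Difference of each member, light-damaged minus dark-adapted in log2 units (x axis), as the estimate with its unadjusted 95% interval from the limma fit with the replicate block (coloured) and without it (grey); ticks mark the 3 single pairs. Bid stands at 0.93 with both intervals above 0, and the interval of Mcl1 is above 0 with the block (0.19 to 0.67) but not without it (-0.06 to 0.92).

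Taken by direction, Bid, Mcl1 and Bcl2l1 were higher in light in 3 of 3 pairs, and Bcl2 and Bcl2l11 were lower in 3 of 3. Of all genes 19.9% were higher and 20.7% lower in each pair. The groups did not overlap for 2 members, Bid and Bcl2l11, and for 10.3% of all genes in either direction. By role, 1 of 5 BH3-only genes, none of 3 protective genes and not the 1 effector measured were called. The median difference was 0.02 over the BH3-only genes and 0.09 over the protective ones. Of the 20 probe sets not used, 16 had the sign of the one used for their gene, 4 had the opposite sign and 1, that of Mcl1 above, was called, where 3.77% of all probe sets were.

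**Figure D3:**
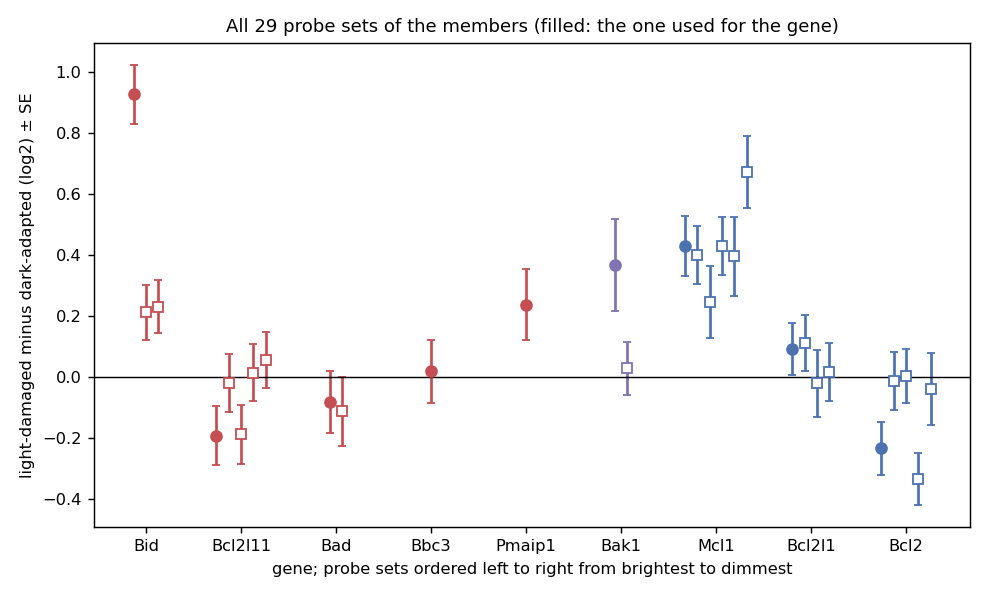
Difference, light-damaged minus dark-adapted in log2 units ± standard error (limma with the replicate block, n = 3 per group), of all 29 probe sets of the 9 members, ordered within a gene from brightest to dimmest; filled circles are the sets used. The 3 probe sets of Bid spread from 0.21 to 0.93, and the 6 of Mcl1 lie between 0.25 and 0.67.

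Other genes of apoptosis and of lytic cell death were read from 8 lists with 77 measured genes. With the block 12 rose and 1 fell, a share of 16.9% against the 4.99% of all genes. The lists were chosen with earlier results of these data known, so these 2 shares are no test of the lists. Limma called none of them without the block, where 15 had an unadjusted p under 0.05. The blocked fit put 24 of the 77 below that level, and 19% of all genes. With the block, 8 were called without the replicate 2 arrays and 3 without the replicate 3 arrays. Calls over all 18193 genes fell as well, from 908 to 677 and 228 in these settings. Other BCL2 family genes gave no call among 11 (2 at an unadjusted p under 0.05, median difference -0.03). Bnip3, a mitochondrial BH3-like protein induced in hypoxia, differed by -0.47 ± 0.13 (limma adjusted p = 0.12), and Bcl2l12 by 0.26 ± 0.08 (limma adjusted p = 0.16), with no overlap between groups for either. The protective Bcl2l2 differed by -0.19 ± 0.09. Genes of the mitochondrial pore and the apoptosome, the complex that activates caspase-9, gave no call among 11 and none at an unadjusted p under 0.05, with a median of -0.02. Cytochrome c (Cycs) differed by 0.10 ± 0.09, Apaf1 by 0.18 ± 0.10 and Casp9 by -0.02 ± 0.09. Of 6 measured caspases and their substrates 1 rose, Parp1, which encodes a DNA repair enzyme cut by caspases, at 1.34-fold (limma adjusted p = 0.0498). Parp1 lost its call in several settings, among them median centring.

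On the list of the death receptor pathway 2 of 11 genes rose. It holds receptors of the TNF family, ligands, adaptors and Casp8, and not every receptor on it is a death receptor. Tnfrsf12a, the receptor of the cytokine TWEAK, read 9.39, 8.93 and 9.03 in dark-adapted and 10.92, 10.44 and 10.07 in light-damaged replicates 1 to 3, with no overlap. It rose by 1.36 on the log2 scale, or 2.56-fold (limma adjusted p = 0.0040), and its second probe set gave a log2 difference of 1.44. Tnfrsf1a, the main receptor of TNF, rose 1.70-fold (limma adjusted p = 0.0151). Casp8, which encodes the caspase that cleaves BID, differed by 0.27 ± 0.10, its inhibitor Cflar by -0.34 ± 0.10 and Fas by 0.04 ± 0.09, none of which passed.

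Of 6 inhibitor of apoptosis genes 3 rose and 1 fell. The mitotic survivin gene Birc5 rose 1.66-fold, Birc3, a ubiquitin ligase of TNF signalling, 1.42-fold and Naip2, an inflammasome sensor, 1.36-fold (limma adjusted p = 0.0183, 0.0395 and 0.0473). Birc5 and Naip2 were dimmer than Bid. The second probe set of Birc3 gave 0.22 ± 0.12 (limma adjusted p = 0.43 over all probe sets). Calls on this list fell from 4 to 2 with dim genes left out, with quantile normalization and with median centring. They stayed at 4 with array weights and, with the block, without the replicate 1 arrays. With the block they fell to 2 without the replicate 2 arrays and to 1 without the replicate 3 arrays. Xiap, the direct caspase inhibitor, fell by 1.03 (limma adjusted p = 0.0265). It read 9.89, 11.93 and 12.01 in dark-adapted and 8.32, 11.07 and 11.34 in light-damaged replicates 1 to 3, so both replicate 1 arrays lay far below the rest and the groups overlapped. Of its 6 other probe sets, 1 gave 0.10 and 5 gave differences of -0.86 to -0.05.

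The p53 list gave 2 rises among 13 genes, the cell cycle inhibitor Cdkn1a at 1.85-fold (limma adjusted p = 0.0049) and the nuclease gene Aen at 1.45-fold (limma adjusted p = 0.0271). The 3 other probe sets of Aen gave 0.04 to 0.20. The p53 ligase gene Mdm2 differed by 0.08 ± 0.09, and the median of the list was 0.01. Of 12 stress regulators of BH3-only genes, Ddit3, the endoplasmic reticulum stress factor CHOP, rose 1.46-fold and the AP-1 subunit Jun 1.39-fold (limma adjusted p = 0.0293 and 0.0393). A second probe set of Ddit3 gave 0.20 ± 0.09 and one of Jun 0.76 ± 0.21. Neither passed with p-values adjusted over all probe sets (limma adjusted p = 0.34 and 0.12). Foxo3, an activator of Bcl2l11 and Bbc3, differed by -0.34 ± 0.10 and did not pass. Of 7 genes of lytic cell death, Pycard, the inflammasome adaptor, rose 2.02-fold and Casp1, which cuts interleukin-1 beta, 1.46-fold (limma adjusted p = 0.0119 and 0.0240). The other 2 probe sets of Pycard, both dimmer, gave 0.14 and 0.04.

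**Figure D4:**
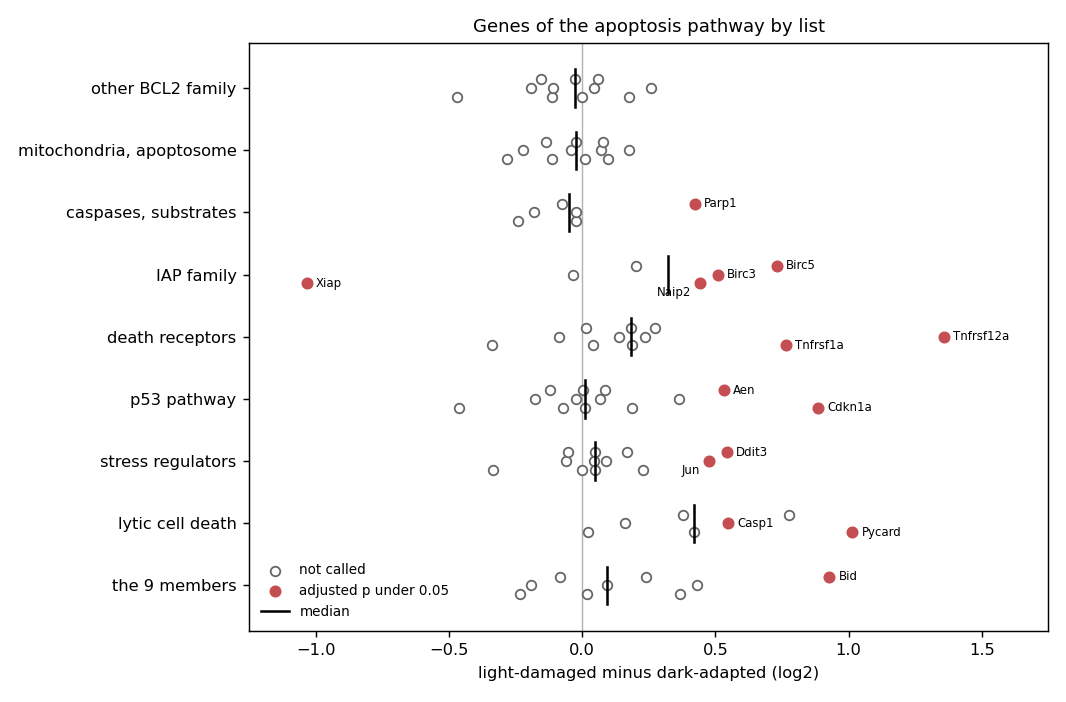
Difference, light-damaged minus dark-adapted in log2 units (x axis), of the 9 members and of each measured gene of 8 lists (rows). The lists cover apoptosis and lytic cell death. Filled points passed at an adjusted p under 0.05 in limma with the replicate block, and black bars are medians. The 13 called list genes lie in 6 of the lists, and the lists of other BCL2 family genes and of the apoptosome have none.

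The arrays measured whole tissue samples, in which fewer cells of a type and less RNA per cell cannot be told apart. Markers of several cell types also differed between the groups, in both directions. Of 14 macrophage and microglia markers 13 rose, with a median of 0.93, and their mean log2 level was 9.32 to 9.58 in dark-adapted and 10.27 to 10.49 in light-damaged arrays. Of 8 neutrophil markers, 2 rose (7.58 to 7.94 against 7.95 to 8.56). The median over 11 RPE markers was -0.41, all 11 being below 0, and 1 fell (12.65 to 13.02 against 12.09 to 12.63). The median over 11 photoreceptor markers was -0.55, again with all 11 below 0, and 6 fell (12.11 to 12.62 against 11.49 to 12.06). Lymphocyte markers gave no call among 7 and none at an unadjusted p under 0.05 in limma, at 6.97 to 7.13 against 6.93 to 7.31. The other lists were 8 endothelial markers (1 rose, 7.28 to 7.46 against 7.38 to 7.68), 8 of fibroblasts and pericytes (2 rose, 10.38 to 10.44 against 10.52 to 10.89) and 5 of Müller glia (2 rose, 10.32 to 10.69 against 10.59 to 11.07). Without the block limma called no marker of any of these lists, and 9 macrophage, 2 RPE and 5 photoreceptor markers had an unadjusted p under 0.05. The part of these markers in the differences of Bid or any other member was not tested.

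The genes whose profile over the 6 arrays was nearest to that of Bid were Rgs19, Mndal and Ikzf1. Likeness was the root mean square distance between log2 profiles, each minus its own mean, and it was 0.06, 0.07 and 0.07 against a median of 0.51 over all genes. Rgs19, a regulator of G protein signalling, read 7.90, 7.84 and 7.84 in dark-adapted and 8.83, 8.79 and 8.59 in light-damaged replicates 1 to 3. Mndal, of the interferon-inducible p200 family and measured by an x_at set, differed by 0.89 and Ikzf1, a transcription factor of blood cell lineages, by 0.96.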

How the data were processed

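Total RNA of RPE from 6 samples, 3 dark-adapted and 3 light-damaged, was labelled with biotin and hybridised to Affymetrix mouse arrays, per the labels' protocols. The deposited values are log2 expression per probe set, made by the authors with RMA, per the submitters' processing notes. RMA corrects background, normalizes arrays and summarises probes, and it compresses differences of dim and very bright genes. Its version is not given in the sources used here. The table held 45101 probe sets. The 2016 platform annotation gave 34945 a single symbol, and the probe set with the highest mean represented each of 18193 genes.

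The comparison used limma's lmFit and eBayes (version 3.58.1, under R 4.3.3; two-sided, Benjamini-Hochberg over all genes), with the replicate number as a block because the rule for this gene family pairs the arrays. The labels do not say what a number marks. Deviations of same-numbered arrays from group means correlated at 0.89, 0.62 and 0.86 across genes, but also at 0.65 and 0.61 between replicates 2 and 3. With the block, 908 genes were called, without it 9. The fit with the block was tested on simulated data that kept the pairing by replicate number. That test cannot say whether the block is right for these arrays. Alternatives covered the block, normalization, a dim filter, a pseudocount of 16, probe set choice, limma settings, array weights and left-out arrays.

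Every member was named, and of each list the called genes, up to 4 by p, and for Bid the 3 nearest profiles. Other list genes were named after their values were seen. The members and lists were chosen with earlier results of these data known. Of 85 listed pathway genes 77 were measured.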

Additional observations from a re-analysis of the deposited data

How the results depend on the processing

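With 3 arrays per group, calls moved with several settings. With the block, 1 member was called higher. The count was 0 without the replicate block and 0 when dim genes were left out, which removed Bid, Bak1 and Pmaip1 from the test. It was 2 with quantile normalization (Bid and Mcl1), and 3 (Bid, Mcl1 and Bak1) with array weights and without replicate 1, with or without the block. Leaving out the pair of one replicate number gave 1 to 3 members, and leaving out 1 array without the block, settings chosen after seeing the data, gave 0 in all 6 cases. No member was called lower in any of these settings, where 1 had an unadjusted p under 0.05 in limma with the block and all arrays. The Bid difference was 0.46 to 1.02 over 18 settings, and Bid was called in 11 of them, with limma adjusted p from 0.0015 to 0.43. The direction was kept in every setting by Bid, Bak1, Mcl1, Pmaip1, Bcl2, Bcl2l1 and Bcl2l11. Bad turned to 0.020 without replicate 1, in both fits, and to 0.014 without light-damaged replicate 1 and without the block. Bbc3 turned to -0.0020 with median centring, -0.057 with array weights, -0.093 without replicate 1 in both fits (0.079 without replicate 3), and to -0.037 and -0.16 without the block when dark-adapted replicate 3 or light-damaged replicate 1 was left out. The 13 pathway calls became 0 without the block, 9 without the block and without replicate 1, 14 without replicate 1 with the block, 8 without replicate 2 and 3 without replicate 3, and 0 when 1 array was left out without the block. The calls over all genes, in the same order, were 9, 793, 1245, 677, 228 and 3 to 12, against 908. No cause of these changes was tested.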
